A study of Mus musculus with 22 samples.

Results

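The genes described here are 10 components of the integrated stress response and of the unfolded protein response of the endoplasmic reticulum (ER): Ddit3, Atf4, Trib3, Chac1, Asns, Sesn2, Ppp1r15a, Xbp1, Hspa5 and Sdf2l1. They were picked by symbol, and each of the 10 symbols is present among the 23953 gene symbols of the expression table. Their RNA levels were followed in all 10 RNA libraries, and peaks of PU.1, C/EBPα, C/EBPβ and the histone mark H3K4me2 within 20 kb of their starts in all 12 chromatin immunoprecipitation (ChIP-seq) libraries.

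BV2, an immortalised mouse microglial line, was transduced with the lentiviral vector pCDH-CMV-MCS-EF1-Puro, in which the CMV promoter drives the insert. The vector was empty, or it encoded the N-terminal part of human huntingtin, either with 15 glutamines (Nwt, the wild-type fragment) or with 128 glutamines (Nmu, the mutant fragment). All 3 groups therefore carry the vector, and none received a further treatment. Each construct has 1 RNA library at 24 h and 1 at a second time, which is 6 h in the table's header and 48 h in the labels, so no order of the times is assumed. Each antibody has 1 ChIP-seq library per construct, labelled 24 h. The primary cells came from mice with 7 glutamines (Q7/7) or 175 glutamines (Q175/175) in both huntingtin alleles, whose ages the labels do not give, with 1 library per genotype and cell type. Microglia of cortex, striatum and hippocampus were sorted as CD11b-positive, CD45-low cells after a Percoll gradient, and bone marrow derived macrophages were grown with medium conditioned by L-cells. Whether any 2 libraries are separate transductions, cultures or animals is not in the labels. The p-values therefore cover the spread between these libraries alone, and that spread may be technical.

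In the integrated stress response, kinases that sense amino acid shortage, haem shortage, double-stranded RNA or misfolded ER proteins phosphorylate the translation factor eIF2α. General translation falls while the transcription factor ATF4 is made, and ATF4 turns on genes for amino acid supply, redox control and, through CHOP, cell death. The unfolded protein response has 3 ER sensors: PERK, which is one of the eIF2α kinases, IRE1, which splices Xbp1 RNA, and ATF6, which drives ER chaperones. ATF4 and XBP1 are controlled largely after transcription, and neither their protein nor the splicing of Xbp1 was measured here.

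The 10 genes differ in their place in these pathways. Atf4 (NM_001287180, chr15:80085614-80087975, plus strand) encodes the central transcription factor, and Ddit3 (NM_007837, chr10:126727849-126733344, plus) encodes CHOP. Trib3 (NM_175093, chr2:152163161-152169796, minus) encodes a pseudokinase that restrains ATF4 and CHOP, and Ppp1r15a (NM_008654, chr7:52778288-52781638, minus) encodes GADD34, which directs a phosphatase to eIF2α. Asns (NM_012055, chr6:7625171-7643182, minus) makes asparagine, Sesn2 (NM_144907, chr4:132048722-132066371, minus) restrains mTORC1, and Chac1 (NM_026929, chr2:119176978-119180062, plus) degrades glutathione. On the ER side, Xbp1 (NM_013842, chr11:5420644-5425996, plus) encodes the IRE1 target, Hspa5 (NM_001163434, chr2:34627610-34632049, plus) the chaperone BiP, and Sdf2l1 (NM_022324, chr16:17130231-17132476, minus) a partner of ER co-chaperones. All these positions are transcript spans in the mm9 assembly. Atf4, Xbp1 and Hspa5 have 2 transcripts in the table, and the one with the higher mean was used. The Ddit3 span overlaps that of Mars, on the other strand, by 68 bases, and the sources used here do not say whether reads were counted by strand.

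The promoters below (GRCm38.p6, from 250 bases before to 50 bases after the start, RefSeq) are shown because they hold a textbook stress element, or, for Ddit3, because its RNA showed one of the 3 strongest differences between mutant-fragment and control cells. All 10 genes matched an entry of the promoter table. The C/EBP-ATF element, at which ATF4 and C/EBP proteins are known to bind as dimers, was searched as TGATGNAA on both strands. Of 32851 mouse promoters of the same length, 3.97% hold it. Of the 10 genes Trib3, Chac1 and Asns hold it, in capitals, at 14 to 21 bases after the start, 193 to 186 bases before it and 23 to 16 bases before it.

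Trib3, chr2:152344011-152344310, minus strand: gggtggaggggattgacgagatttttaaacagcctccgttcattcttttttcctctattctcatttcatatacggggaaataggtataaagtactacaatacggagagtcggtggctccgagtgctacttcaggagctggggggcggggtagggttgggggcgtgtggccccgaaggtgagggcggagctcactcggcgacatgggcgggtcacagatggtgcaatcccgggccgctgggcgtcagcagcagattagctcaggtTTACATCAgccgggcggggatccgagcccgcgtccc
Chac1, chr2:119350992-119351291, plus strand: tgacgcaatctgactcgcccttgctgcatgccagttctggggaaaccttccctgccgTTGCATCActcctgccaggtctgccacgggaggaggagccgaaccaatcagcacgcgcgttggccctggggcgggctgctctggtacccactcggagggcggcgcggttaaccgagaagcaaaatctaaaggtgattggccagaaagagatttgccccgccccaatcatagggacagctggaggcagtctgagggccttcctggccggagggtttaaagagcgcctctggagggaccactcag
Asns, chr6:7693160-7693459, minus strand: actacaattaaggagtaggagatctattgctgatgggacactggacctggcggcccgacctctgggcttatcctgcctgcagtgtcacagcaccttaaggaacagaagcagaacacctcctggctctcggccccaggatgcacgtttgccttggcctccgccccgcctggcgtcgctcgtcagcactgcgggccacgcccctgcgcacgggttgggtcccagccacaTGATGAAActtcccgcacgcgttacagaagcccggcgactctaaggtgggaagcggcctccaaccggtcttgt

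The ER stress element (ERSE), bound by ATF6 with NF-Y, was searched by that name as its 19-base consensus on both strands and is in 0.119% of the promoters. Hspa5 holds it, in capitals, at 65 to 47 bases before the start. ERSE-II, searched by that name, and the core TGACGTGG of the unfolded protein response element are in 0.0365% and 0.676% of promoters and in 0 of the 10. Ddit3 holds none of these letters in this window.

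Hspa5, chr2:34771840-34772139, plus strand: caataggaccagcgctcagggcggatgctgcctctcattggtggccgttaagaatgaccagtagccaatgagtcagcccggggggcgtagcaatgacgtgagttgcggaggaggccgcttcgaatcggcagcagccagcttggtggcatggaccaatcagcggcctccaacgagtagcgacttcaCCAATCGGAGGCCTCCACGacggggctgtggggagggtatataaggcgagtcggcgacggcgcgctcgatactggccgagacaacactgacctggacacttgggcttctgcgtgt
Ddit3, chr10:127290543-127290842, plus strand: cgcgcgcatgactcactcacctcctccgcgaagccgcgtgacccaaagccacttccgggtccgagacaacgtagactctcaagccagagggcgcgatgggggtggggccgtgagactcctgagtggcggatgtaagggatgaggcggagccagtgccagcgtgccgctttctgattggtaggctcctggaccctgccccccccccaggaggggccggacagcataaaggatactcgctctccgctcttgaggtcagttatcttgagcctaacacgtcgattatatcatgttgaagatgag

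RNA values are RPKM, reads per kilobase of transcript, scaled to the depth of the library. The depth implied by the smallest steps in the values was 10.8 to 14.0 M (mega) reads in BV2 libraries and 28.8 to 47.8 M in those of primary cells. Macrophage markers were expressed in every library, and the 8 genes summed to 251 to 453 RPKM in BV2 cells, 849 to 949 in microglia and 958 to 1018 in macrophages. The defining microglia markers were near 0 in BV2 cells: 6 of 8 stayed under an RPKM of 1 in all 6 libraries, Siglech was listed at 0 in each, and the summed level was 25.5 to 118, against 3504 to 4177 in sorted microglia. Markers of lymphocytes and fibroblasts summed to at most 1.17 in any library. The human fragment itself is not a gene of this mouse table, so its level was not analysed here.

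The mutant-fragment library of 24 h had the highest level among the 6 BV2 libraries for 9 of the 10 genes, against 19.7% of all genes tested. Sdf2l1 was the exception. On the log2(RPKM + 1) scale used for tests, Ddit3, Trib3 and Ppp1r15a stood 6.51-fold to 7.04-fold above the controls there, and Hspa5, Asns, Atf4 and Sesn2 1.48-fold to 1.89-fold. At the second time the mutant library lay close to its controls for most of the 10.

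**Figure D1:**
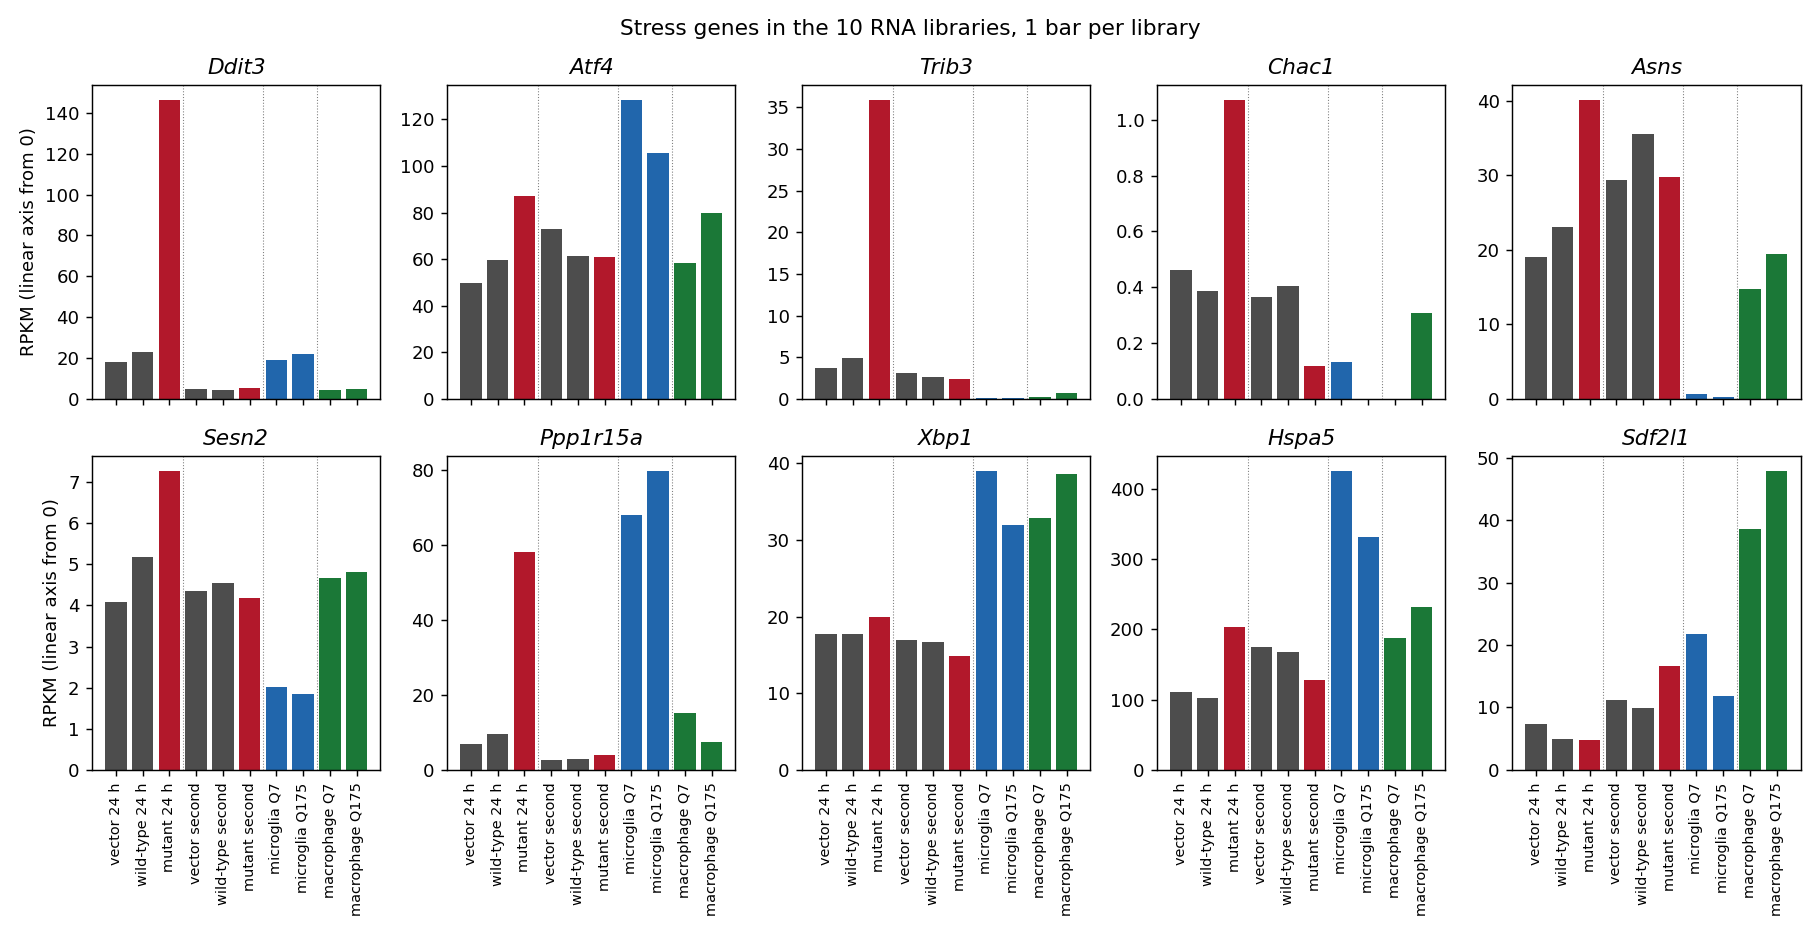
RPKM of each of the 10 genes (vertical axis, linear from 0, with its own range per gene) in the 10 RNA libraries (horizontal axis), 1 bar per library and no error bars because each is a single library. Red bars are BV2 cells with the mutant fragment, grey bars the 2 BV2 controls, blue bars microglia and green bars macrophages. The red bar of 24 h is the tallest BV2 bar in 9 of 10 panels, and Atf4, Ppp1r15a, Xbp1, Hspa5 and Sdf2l1 reach their highest bars in primary cells.

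Ddit3, the CHOP gene, was at 18.0, 22.8 and 146 RPKM at 24 h in cells with the empty vector, the wild-type fragment and the mutant fragment, and at 4.79, 4.47 and 5.48 at the second time. Both controls were thus also higher at 24 h than any BV2 library of the second time, and the mutant library stood apart from them at 24 h only. The mutant value was 7.17 times the mean of both controls at 24 h, and 1.18 times it at the second time.

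Trib3 was at 3.65, 4.90 and 35.9 RPKM at 24 h in the same order, and at 3.07, 2.59 and 2.41 at the second time. That is 8.40 times the control mean at 24 h, and 0.851 times it at the second time, when the mutant library was the lowest of the 3. Ppp1r15a, whose product reverses eIF2α phosphorylation, was at 6.84, 9.50 and 58.0 RPKM at 24 h and at 2.67, 2.99 and 3.83 at the second time. It followed Ddit3 in the order of all 6 libraries but for the controls of the second time.

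Asns was at 19.0, 23.0 and 40.1 RPKM at 24 h and at 29.3, 35.6 and 29.8 at the second time. The 24 h mutant value was the highest, but the controls of the second time came close to it, unlike those of Ddit3 and Trib3. Sesn2 was at 4.08, 5.17 and 7.28 RPKM at 24 h and at 4.35, 4.54 and 4.18 at the second time. Chac1 was near the detection limit in every library. It had 8, 8 and 23 reads at 24 h, which is 0.460 RPKM (95% Poisson interval of 0.199 to 0.906), 0.388 (0.168 to 0.765) and 1.07 (0.679 to 1.61). At the second time it had 8, 8 and 2 reads. The mutant interval of 24 h overlaps both control intervals, and Chac1 reached an RPKM of 1 in 1 library only, so it was not tested. These intervals cover counting error only.

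Atf4 itself ranged less, from 49.9, 59.7 and 87.2 RPKM at 24 h to 72.8, 61.5 and 60.8 at the second time. Hspa5 was at 110.3, 103 and 202 RPKM at 24 h and at 175, 167 and 128 at the second time. The BiP gene was thus above both controls at 24 h and below both at the second time. Xbp1 was the steadiest of the 10 in BV2 cells, at 17.7, 17.8 and 19.9 RPKM and then 16.9, 16.7 and 14.8. Sdf2l1 was the only one not highest in the 24 h mutant library: it was at 7.34, 4.96 and 4.82 RPKM at 24 h and at 11.3, 9.95 and 16.7 at the second time.

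Which of these differences exceeded the spread between controls was tested for each time in 1 limma fit of log2(RPKM + 1) over all 6 BV2 libraries. Here the error pools the differences between empty-vector and wild-type-fragment libraries over both times, with 2 residual degrees of freedom. It is moderated by limma towards the spread of all genes. The mutant fragment has 1 library per time, so its own spread is not part of the test. Of the 10 genes, 9 had an RPKM of 1 or more in every BV2 library and were tested. At 24 h, 7 of these 9 passed an adjusted p of 0.05 (Benjamini-Hochberg over 10350 genes) and all 7 were higher in the mutant library. The background is large: 39.6% of all genes passed, 21.1% higher and 18.4% lower. The median log2 difference was 0.91 over the 9 genes and 0.05 over all genes.

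The 3 strongest differences at 24 h belonged to Trib3 (log2 difference 2.82, SE 0.18, adjusted p 0.00115, limma), Ddit3 (2.79, SE 0.16, adjusted p 0.000985) and Ppp1r15a (2.70, SE 0.19, adjusted p 0.00147). Their 95% intervals, 2.36 to 3.27, 2.38 to 3.21 and 2.21 to 3.20, overlap one another and lie above those of the other members. Hspa5 rose by 0.92 (SE 0.11, adjusted p 0.00396, limma), Asns by 0.91 (SE 0.17, adjusted p 0.0147), Atf4 by 0.67 (SE 0.17, adjusted p 0.0301) and Sesn2 by 0.56 (SE 0.15, adjusted p 0.0339). Xbp1 (0.16, interval -0.09 to 0.41, adjusted p 0.241) and Sdf2l1 (-0.28, interval -0.84 to 0.28, adjusted p 0.357) did not pass. Without the empty-vector library of 24 h, 4 genes remained past the threshold, and adjusted p became 0.0540 for Asns, 0.0921 for Atf4 and 0.0696 for Sesn2. Sesn2 also missed it without either control of the second time (adjusted p 0.0739 without the empty vector and 0.0751 without the wild-type fragment). Atf4 and Sesn2 missed it with a pseudocount of 0.1 (adjusted p 0.0525 and 0.0530), and Atf4, Sesn2 and Asns without the filter on low values (0.108, 0.102 and 0.0735), where Xbp1 (0.0499) and Chac1 (0.0224) passed. Ddit3, Trib3, Ppp1r15a and Hspa5 passed under all 12 alternatives run, with adjusted p of at most 0.0212.

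**Figure D2:**
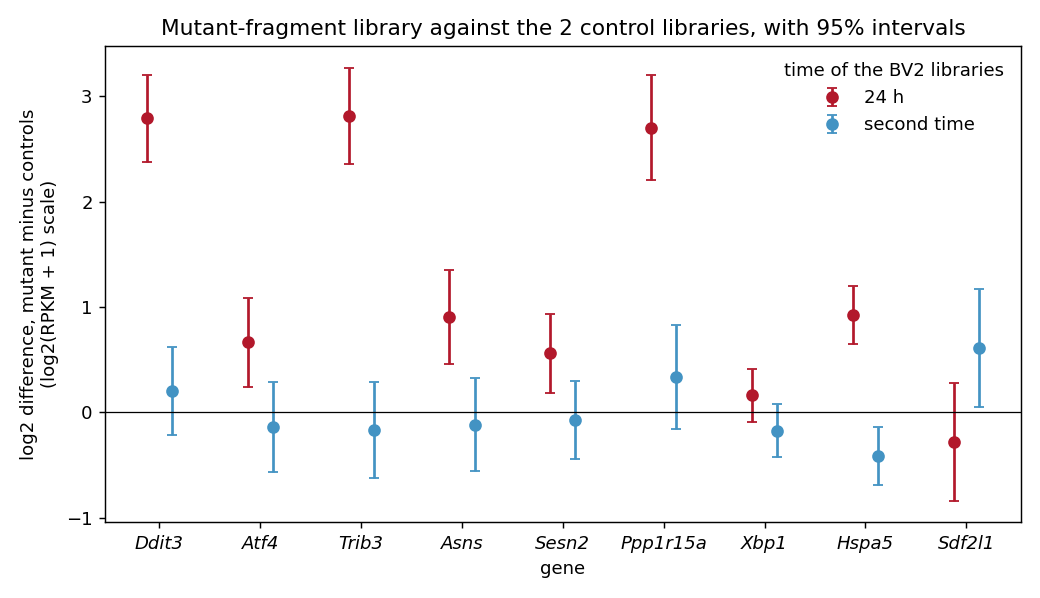
Log2 difference between the mutant-fragment library and the 2 control libraries (vertical axis, log2(RPKM + 1) scale) for the 9 tested genes (horizontal axis), at 24 h in red and at the second time in blue. Points are limma estimates and bars their 95% intervals. Ddit3, Trib3 and Ppp1r15a lie between 2.70 and 2.82 at 24 h and between -0.17 and 0.34 at the second time.

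At the second time, 1 of the 9 genes passed, Hspa5, which was lower in the mutant library by the fit (log2 difference -0.42, SE 0.11, adjusted p 0.0488, limma). The background was 23.5% of all genes, 14.6% of them lower. This call is fragile: it was lost without any 1 of the 4 control libraries, with adjusted p of 0.0678 without the empty vector of 24 h, 0.0679 without the wild-type fragment of 24 h, 0.169 without the empty vector of the second time and 0.129 without the wild-type fragment of the second time. Sdf2l1 was at a log2 difference of 0.61 (interval 0.05 to 1.17, adjusted p 0.108), Ppp1r15a at 0.34 (-0.16 to 0.83, adjusted p 0.263), Ddit3 at 0.20 (-0.21 to 0.62, adjusted p 0.404) and Trib3 at -0.17 (-0.62 to 0.29, adjusted p 0.538). An increase of the size seen for Ddit3, Trib3 or Ppp1r15a at 24 h lies outside these intervals.

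The difference of the mutant effect between the times was tested as an interaction in the same limma fit. It passed for 5 of the 9 genes, each with a smaller effect at the second time than at 24 h, against 28.1% of all genes, 16.2% in that direction. The change in log2 difference was -2.98 for Trib3 (SE 0.25, adjusted p 0.00969), -2.59 for Ddit3 (SE 0.23, adjusted p 0.00969), -2.36 for Ppp1r15a (SE 0.27, adjusted p 0.0110), -1.34 for Hspa5 (SE 0.15, adjusted p 0.0109) and -1.02 for Asns (SE 0.25, adjusted p 0.0374). Atf4 (-0.80, adjusted p 0.0586), Sesn2 (-0.63, adjusted p 0.0760), Sdf2l1 (0.89, adjusted p 0.0890) and Xbp1 (-0.33, adjusted p 0.129) did not pass. None of the 5 calls was kept without either control library of the second time, where 23 genes of the whole table passed without the empty vector and 0 without the wild-type fragment. There, adjusted p for Ddit3 and Trib3 was 0.0531 and 0.0502, with log2 values of -2.55 and -2.63 for Ddit3 and -2.89 and -3.07 for Trib3. For Hspa5 it was 0.0531 (log2 -1.31) and 0.0513 (-1.37), for Ppp1r15a 0.0531 (-2.42) and 0.0513 (-2.30), and for Asns 0.0665 (-1.15) and 0.0923 (-0.88). Asns missed the threshold without the empty vector of 24 h as well (-0.89, adjusted p 0.0847) and without the wild-type fragment of 24 h (-1.15, adjusted p 0.0505). It also missed it with a pseudocount of 0.1 (adjusted p 0.0606), and without the filter on low values Asns (0.125) and Ppp1r15a (0.0506) did so while Xbp1 (0.0444) and Chac1 (0.0353) passed. Atf4 passed with a pseudocount of 5 (0.0434) and with limma-trend (0.0457). Without the wild-type fragment of 24 h, Sesn2 (-0.77, adjusted p 0.0464) and Sdf2l1 (1.13, adjusted p 0.0398) passed.

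When the 2 times were instead treated as repeats of a construct, with construct and time as terms, 0 of the 9 genes passed between mutant fragment and empty vector, against 0.0870% of all genes (limma, and 0 also with limma-trend). None had an unadjusted p under 0.05 either, against 15.3% of all genes. Ppp1r15a was at a log2 difference of 1.66 (SE 0.64, adjusted p 0.327), Ddit3 at 1.56 (SE 0.70, adjusted p 0.372) and Trib3 at 1.37 (SE 0.80, adjusted p 0.478). The error of this fit includes how far the effect differs between times, which was large for these genes. Without the second-time mutant library, which leaves 1 mutant library, Ddit3 was at 2.85, Trib3 at 2.86 and Ppp1r15a at 2.84. Without the 24 h mutant library Trib3 turned to -0.13. Ppp1r15a passed without the wild-type fragment of 24 h or of the second time (adjusted p 0.0476 and 0.0493, limma).

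Against the wild-type fragment, a comparison that shares the mutant libraries, 0 of 9 genes passed (0.0676% of all genes; 0 of 9 also with limma-trend and 0 at an unadjusted p under 0.05). Ddit3 was at 1.44, Ppp1r15a at 1.38 and Trib3 at 1.29 (adjusted p 0.392, 0.376 and 0.475). Without the second-time mutant library, which leaves 1 mutant library, Ddit3 was at 2.73, Trib3 at 2.78 and Ppp1r15a at 2.57. Without the 24 h mutant library Sdf2l1 was at 0.77, and Trib3 turned to -0.21. Between the wild-type fragment and the empty vector 0 of 9 genes passed, and 0 had an unadjusted p under 0.05, as 0.638% of all genes did. No gene of the table passed there (0%).

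The controls themselves differed between the times for some of these genes. The mean of both controls was 4.41 times as high at 24 h as at the second time for Ddit3 and 2.89 times for Ppp1r15a, while for Hspa5, Asns and Sdf2l1 the ratio was 0.623, 0.648 and 0.580. In the fit of construct and time over all 6 libraries 0 of 9 passed (0% of all genes), and 3 had an unadjusted p under 0.05, as did 27.2% of all genes: Ddit3 at a second-minus-24 h log2 difference of -2.78 (SE 0.57, adjusted p 0.0736, limma), Ppp1r15a at -2.03 (SE 0.52, adjusted p 0.101) and Sdf2l1 at 1.01 (SE 0.24, adjusted p 0.0860). Leaving out either mutant library, so that the controls alone set the value, 5 of 9 passed, on a large background. Of all 10211 genes 3145 were higher and 1453 lower without the 24 h mutant library. Without that of the second time, 3141 were higher and 1453 lower of 10222. The 5 genes were Ddit3 at -1.92, Ppp1r15a at -1.25, Sdf2l1 at 0.72, Hspa5 at 0.68 and Asns at 0.60 (adjusted p of at most 0.0123, limma). Leaving out either wild-type-fragment library, Ddit3 (-3.11) and Ppp1r15a (-2.35) passed with adjusted p of at most 0.00796. 

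Other genes of the same pathways were read from lists by role. At 24 h the genes of amino acid supply were mostly higher in the mutant library. Of 13 tested genes for cytosolic aminoacyl-tRNA synthetases and the tRNA exporter Xpot, which charge tRNAs and move them to the cytosol, 10 rose and 0 fell, against 21.1% and 18.4% of all genes. Their median log2 difference was 0.87, beside 0.05 for all genes, with Wars at 1.97, Aars at 1.89 and Lars at 1.08 (adjusted p of 0.00111, 0.00176 and 0.00352, limma). Of 7 amino acid transporters 5 rose and 0 fell (median 0.96). The cystine carrier gene Slc7a11 is left out of these counts, because it reached an RPKM of 1 in the mutant libraries only. It was at 0.527, 0.478 and 5.92 RPKM at 24 h and at 0.720, 0.780 and 1.55 at the second time. Slc1a4 and Slc7a5 were each at 1.24 (adjusted p 0.00252 and 0.00192).

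Of 11 tested genes of amino acid and one-carbon synthesis 5 rose and 1 fell (median 0.39), against 21.1% and 18.4% of all genes. Psph, the last enzyme of serine synthesis, was at 1.92, the mitochondrial folate enzyme gene Mthfd2 at 1.66 and Cth, which makes cysteine, at 1.29 (adjusted p of 0.00151, 0.00195 and 0.00558, limma). Among 9 transcription factors and regulators linked to ATF4, leaving out Stc2 and Trib2, which reached an RPKM of 1 in controls only, 6 rose and 2 fell (median 1.21). Gdf15, a stress-induced secreted factor, was at 5.75, 6.82 and 60.4 RPKM at 24 h (log2 difference 3.08, adjusted p 0.00110). Atf3, a factor of the same family as ATF4, was at 1.71 (adjusted p 0.00155). Cebpb, which encodes the C/EBPβ mapped below, rose too (adjusted p 0.00167) and was at 51.6, 52.4 and 149 RPKM.

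The ER side was mixed at 24 h, in contrast to the rise of Hspa5. Of 16 tested ER chaperones and folding enzymes 3 rose and 4 fell, with a median of -0.14. These counts are near the shares of all genes, 21.1% higher and 18.4% lower. The BiP co-chaperone gene Dnajb11 was at 0.85 (adjusted p 0.00464, limma), and the disulfide isomerase genes Pdia6 and P4hb were both at -0.84 (adjusted p 0.00640 and 0.00429). Of 11 genes of ER-associated degradation and translocation 4 rose and 3 fell, against the same shares. They went opposite ways in size too: Herpud1, a scaffold of the degradation complex, was at 1.35 (adjusted p 0.00182), while the mannosidase-like genes Edem1 and Edem2 were at -1.86 and -0.98 (adjusted p 0.00119 and 0.00365).

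The following small lists also stand beside 21.1% of all genes higher and 18.4% lower at 24 h. Of 6 tested sensors and their proteases 2 rose (Atf6b at 0.84 and Ern1, the IRE1 gene, at 0.61, adjusted p 0.00529 and 0.0138, limma) and 0 fell. Atf6 was at -0.32 (adjusted p 0.0612). Among 9 genes of eIF2α kinases, their substrate and its phosphatases 1 rose and 2 fell. The riser was Ppp1r15b, the constitutive relative of Ppp1r15a (0.54, adjusted p 0.0159), and Eif2ak4, which senses uncharged tRNA, was at -0.52 (adjusted p 0.0190) and Nck1 at -0.45 (adjusted p 0.0238). Of 5 tested death genes linked to CHOP 1 rose (Bbc3, 0.63, adjusted p 0.00960) and 2 fell (Dapk3 at -0.64 and Bcl2l11 at -0.61, adjusted p 0.00942 and 0.00912). Of the 2 tested relatives of Sesn2 and Chac1, Sesn1 fell by 1.02 on the log2 scale (adjusted p 0.00249), and Ggct was at -0.10 (adjusted p 0.672).

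**Figure D3:**
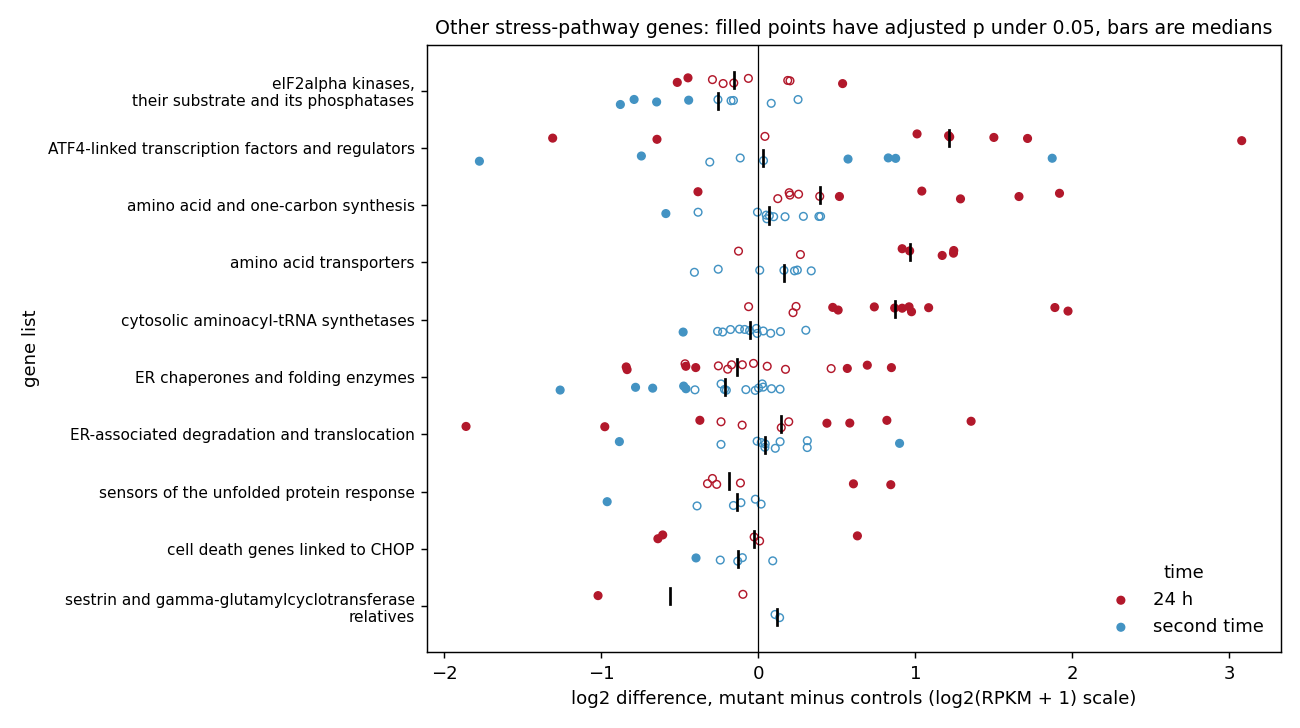
Log2 difference between the mutant-fragment library and the 2 control libraries (horizontal axis, log2(RPKM + 1) scale) for each tested gene of the other pathway lists (vertical axis), red at 24 h and blue at the second time. Filled points passed an adjusted p of 0.05 and black bars are medians. Genes that reached an RPKM of 1 in mutant or in control libraries only are left out. Medians of the transporter and synthetase lists lie at 0.96 and 0.87 at 24 h, and those of the ER chaperones at -0.14.

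At the second time the amino acid lists held few calls. Of the 13 synthetase genes 0 rose and 1 fell (Eprs, -0.48, adjusted p 0.0407, limma), of the 7 transporters 0 rose and 0 fell, and of the 11 synthesis genes 0 rose and 1 fell (Aldh1l2, -0.59, adjusted p 0.0394). The ATF4-linked regulators did hold calls, with 4 higher and 2 lower of 9: Gdf15 was at 1.87 and Atf3 at 0.87 (adjusted p 0.00693 and 0.0126), and Ddit4, a stress-induced brake on mTORC1, was at -1.78 (adjusted p 0.00554). Of the 16 ER chaperones 0 rose and 5 fell, against 8.98% and 14.6% of all genes. The GRP94 gene Hsp90b1 was at 77.9, 76.6 and 31.6 RPKM there (log2 difference -1.26, adjusted p 0.00604), in the same direction as Hspa5.

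Of the remaining lists at the second time, the eIF2α kinase list had 0 higher and 4 lower of 9, against 8.98% and 14.6% of all genes. The degradation list had 1 and 1 of 11 (Herpud1 at 0.90 and Edem1 at -0.89, adjusted p 0.00909 and 0.0108, limma), and the sensors 0 and 1 of 6 (Mbtps2, -0.96, adjusted p 0.00928). The interaction test showed that 9 of 13 synthetase genes, 6 of 7 transporters, 5 of 11 synthesis genes and 5 of 9 ATF4-linked regulators had a lower mutant-minus-control difference at the second time than at 24 h, against 16.2% of all genes. A higher difference passed for none of these genes. The largest of these changes in the synthetase, synthesis and regulator lists were Wars (-1.89, adjusted p 0.00969), Psph (-1.53, adjusted p 0.0120) and Cebpg (-1.96, adjusted p 0.0114). Cell identity markers moved at the same time. Of 8 macrophage markers 2 rose and 4 fell in the mutant library at 24 h and 5 rose and 1 fell at the second time. The microglia marker sum was lowest in the mutant library at 24 h. The granulocyte list summed to 219 there through Lcn2 alone (219 RPKM, and at most 1.98 in other BV2 libraries), with S100a9, Mpo and Ltf listed at 0. Their part in the results was not tested.

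H3K4me2, a histone mark of promoters and enhancers, had a peak within 20 kb of all 10 starts with each construct, against 66.2%, 65.7% and 67.2% of all genes in the respective lists (empty vector first, then wild-type, then mutant fragment). Among genes at an RPKM of 1 or more in BV2 cells the shares were 96.7%, 96.6% and 96.9%, so 10 of 10 is near the share of expressed genes. These and all peaks here were called by the authors in each library on its own. Within 1 kb a peak centre was present for 8, 7 and 9 of the 10 (36.9%, 37.0% and 36.1% of all genes, and 68.5%, 69.5% and 67.2% of those at an RPKM of 1 or more in BV2 cells). Peaks of the 3 lists that overlapped were merged into sites. There were 44 H3K4me2 sites within 20 kb, and 34 of them (77.3%) had a peak with each construct, against 64.2% of sites in the genome.

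Of the other 10 H3K4me2 sites, counted by peak centres within 20 kb, 6 were in the mutant list only (13.6%, against 11.4% of sites in the genome) and 4 in the empty-vector and mutant lists. The mutant-only sites were near Chac1 (chr2:119175908-119176535, 0.757 kb before the start, and 15.1 kb before it), Trib3 (chr2:152165639-152166266, within the gene, 3.84 kb after the start), Sesn2 (15.4 kb after its start and within the gene), Hspa5 (5.07 kb after its start) and Atf4 (20.0 kb before its start). The Atf4 site lies at the limit of the window, and its place among mutant-only sites depends on that limit. Counted by peak edge instead of centre, each of the 3 lists had 4 H3K4me2 peaks within 20 kb of Atf4. Near Ddit3 the wild-type-fragment list likewise went from 2 to 3. Sites in the genome have no such limit. With 1 library per list there is no test, and a site in 1 list may lie just under the caller's threshold in another. Ddit3 and Ppp1r15a had no H3K4me2 site of the mutant list alone.

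C/EBPβ is a basic leucine zipper factor that can pair with ATF4 and with CHOP, and its peaks lay close to these starts. Within 1 kb it had a peak for 8 of the 10 with each construct, against 16.1%, 29.1% and 21.6% of all genes and 30.1%, 53.9% and 40.3% of those at an RPKM of 1 or more. Within 20 kb all 10 had one with each construct, against 53.8%, 68.9% and 60.5% of all genes. Shares within 20 kb were higher among genes at an RPKM of 1 or more, at 74.2%, 91.97% and 83.6%. With the wild-type fragment, 10 of 10 is thus near the share of expressed genes. The genes without a C/EBPβ peak within 1 kb were Xbp1 and Sdf2l1 in both control lists, and Xbp1 and Ppp1r15a with the mutant fragment. Xbp1 had a site in all 3 lists just beyond, 1.03 kb after its start. Of 68 C/EBPβ sites within 20 kb, 29 (42.6%) were in all 3 lists, against 34.3% in the genome, and 11 (16.2%) were in the mutant list only, against 8.09%. More, 14, were in the wild-type-fragment list only, and 4 in the empty-vector list only.

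Several of the shared C/EBPβ sites cover or adjoin the start. In mm9 the site at Trib3 (chr2:152169727-152169878) was centred 0.00900 kb before the start, that at Asns (chr6:7643136-7643310) 0.0447 kb before it, that at Hspa5 (chr2:34627548-34627825) 0.0660 kb after it and that at Chac1 (chr2:119176687-119176841) 0.215 kb before it. Trib3, Chac1 and Asns are the genes whose promoters, printed above, hold the C/EBP-ATF element. Peaks are placed in mm9 and elements in GRCm38.p6, each by distance from the start annotated in that build. Ddit3 had 4 C/EBPβ sites in all 3 lists, at 2.72, 1.39 and 0.316 kb before its start and 2.52 kb after it. The one nearest its start is chr10:126727458-126727609, and its centre lies further from the start than the printed promoter reaches. Sesn2 and Atf4 had shared sites 0.250 kb before and 0.898 kb after their starts.

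Ppp1r15a differed from these. Its C/EBPβ peak at the start (chr7:52781532-52781707, centred 0.0205 kb after it) was in the empty-vector and wild-type-fragment lists and not in the mutant list, while among BV2 libraries its RNA was highest with the mutant fragment at 24 h. The mutant list instead had a site 3.45 kb before the start. No C/EBPα peak was listed within 20 kb of Ppp1r15a with any construct.

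C/EBPα, the relative of C/EBPβ that drives early myeloid genes, had a peak within 1 kb of 4, 6 and 3 of the 10 starts, against 5.01%, 12.0% and 4.57% of all genes, and within 20 kb of 9, 9 and 6, against 26.3%, 39.3% and 22.0%. Among genes at an RPKM of 1 or more the shares were 9.28%, 23.1% and 8.66% within 1 kb. Within 20 kb they were 38.4%, 57.9% and 32.6%. The starts with a peak within 1 kb in the mutant list were those of Ddit3, Atf4 and Trib3, which had one in all 3 lists. Of 24 C/EBPα sites within 20 kb, 8 (33.3%) were in all 3 lists, against 25.6% in the genome, and 0 in the mutant list only, against 5.18%. Another 8 were in the wild-type-fragment list only. The lists differ in length, from 9117 C/EBPα peaks with the mutant fragment to 19732 with the wild-type fragment, and from 35964 to 69522 for C/EBPβ, so a site missing from a short list is not a measured loss.

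PU.1, the factor that sets myeloid identity, lay within 1 kb of these starts about as often as for all genes. Within 1 kb it had a peak for 2, 1 and 1 of the 10, against 21.7%, 14.4% and 18.4% of all genes and 38.4%, 25.6% and 32.7% of those at an RPKM of 1 or more. Within 20 kb the numbers were 10, 8 and 9, above the 70.9%, 63.6% and 68.8% of all genes. They are near the 90.3%, 83.3% and 88.3% of genes at an RPKM of 1 or more. Chac1 had the most PU.1 sites in all 3 lists, 5, although it had the lowest RNA level of the 10 in BV2 cells. Ddit3 had 4 PU.1 peaks with the empty vector and 0 with either fragment, and its nearest was 1.42 kb after the start. The empty-vector list is the longest, at 71846 PU.1 peaks against 53835 and 64744. Of the 53 PU.1 sites near the 10 genes 16 were in that list only, so this is not a measured loss.

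**Figure D4:**
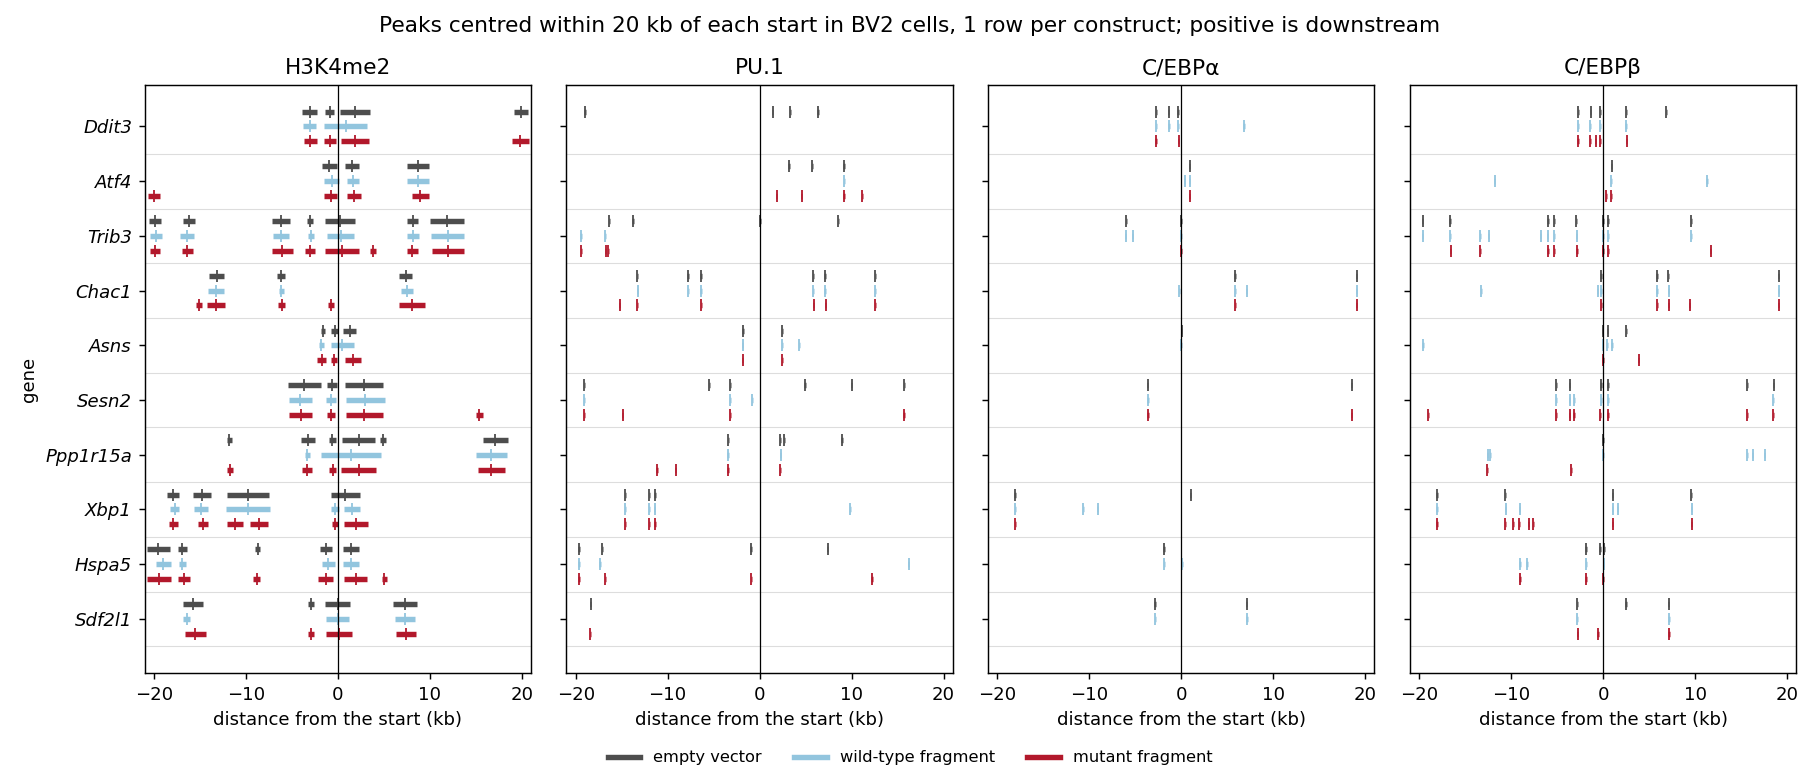
Peaks centred within 20 kb of the starts of the 10 genes (rows) in BV2 cells, in 4 panels by antibody. The horizontal axis is the distance from the start in kb, positive downstream, with the start at the black line. Each gene has 3 lines, 1 per construct. Ticks are peak centres and thick bars peak widths. C/EBPβ ticks cluster at the line for most genes in all 3 colours, while few PU.1 ticks do.

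Levels in primary cells are given for Q7/7 first and Q175/175 second. Microglia had 19.3 (Q7/7) and 21.98 (Q175/175) RPKM of Ddit3, and macrophages 4.24 and 4.91. Ppp1r15a was at 67.9 and 79.8 in microglia, above every other library, and at 15.2 and 7.501 in macrophages. Hspa5 was at 425 and 331 in microglia and at 188 and 232 in macrophages, and Atf4 at 128 and 106 against 58.3 and 80.0.

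Asns showed the opposite order, with 0.656 and 0.236 RPKM in microglia (43 and 13 reads) and 14.8 and 19.4 in macrophages. Sdf2l1 was at 21.7 and 11.8 in microglia and at 38.6 and 47.9 in macrophages, and Sesn2 at 2.01 and 1.86 against 4.67 and 4.81. Xbp1 was alike, at 39.0 and 31.9 against 32.9 and 38.6. Trib3, so abundant in the mutant-fragment library of 24 h, was at 0.119 to 0.716 RPKM in the 4 primary libraries, and Chac1 had 7 and 0 reads in microglia and 0 and 23 in macrophages. Neither was tested in these cells. For the libraries at 0 the upper 95% Poisson limit of Chac1 is 0.0820 RPKM in Q175/175 microglia and 0.0780 in Q7/7 macrophages.

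Genotype was tested over both cell types, with genotype and cell type as terms and 1 residual degree of freedom, so that limma gave 1 shared SE of 0.26 to every gene. None of the 8 tested genes passed (0 also with limma-trend, and 0 at an unadjusted p under 0.05), against 0.337% of all genes, and 2.65% unadjusted. Adjusted p was 1.00 for each. The log2 differences, Q175/175 minus Q7/7, ran from -0.35 (Ppp1r15a, interval -0.87 to 0.16) to 0.18 (Ddit3, interval -0.34 to 0.69). The width of these intervals comes from the spread shared by all genes, so they set no bound for a single gene or cell type. Both estimates were smaller than the log2 differences of Ddit3 and Ppp1r15a in BV2 cells at 24 h (2.79 and 2.70). By cell type the ratio of Q175/175 to Q7/7 was 0.544 in microglia and 1.24 in macrophages for Sdf2l1, and 1.17 and 0.492 for Ppp1r15a, with 1 library on each side and no test. Granulocyte markers were mostly lower in the Q175/175 libraries, with 5 of 8 passing. They summed to 1788 in Q7/7 and 571 in Q175/175 microglia, and to 428 and 215 in macrophages. Elane and Mpo went the other way in macrophages, at 3.51 and 2.08 RPKM with Q7/7 and 4.61 and 3.54 with Q175/175. The part of granulocyte markers in the values of the 8 genes was not tested.

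Between macrophages and microglia 6 of 7 genes passed, 2 higher and 4 lower in macrophages, against 67.3% of all genes, 49.2% higher and 18.2% lower (limma). Asns is left out of this count, because it reached an RPKM of 1 in macrophages only and so had to differ. All genes together had a median log2 difference of 0.53 in this comparison, which became -0.01 with quantile normalization and -0.19 with upper-quartile scaling, and the share of all calls that were higher went from 73.0% to 49.8% and 41.3%. Values are therefore best read against that median. Ppp1r15a (-2.67, adjusted p 5.64e-23), Ddit3 (-1.95, adjusted p 6.74e-13), Hspa5 (-0.84, adjusted p 0.00252) and Atf4 (-0.76, adjusted p 0.00670) were lower in macrophages, and also under both scalings. Sdf2l1 (1.37, adjusted p 6.77e-07) did not pass with either scaling (0.34, adjusted p 0.248, and 0.49, adjusted p 0.109), nor did Sesn2 (0.97, adjusted p 0.000496) with upper-quartile scaling (0.29, adjusted p 0.178). Xbp1 (0.01, adjusted p 0.969) turned to -1.01 and -0.88, past the threshold in both. The sizes of p here rest on the 1 shared spread. In bulk samples, fewer cells of a type and less RNA per cell cannot be told apart. Atf4 missed the threshold with a pseudocount of 0.1 (adjusted p 0.0661), and Atf4, Hspa5 and Sdf2l1 did so without the filter on low values (0.155, 0.117 and 0.122). Microglia markers, which summed to 3504 to 4177 RPKM in microglia and 61.6 to 95.5 in macrophages, and granulocyte markers (6 of 8 lower in macrophages) differ between the same groups, and their part was not tested.

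Other pathway genes between the cell types were higher in macrophages for 10 of 13 synthetase genes and 10 of 16 ER chaperones, with 0 and 1 lower, against 49.2% and 18.2% of all genes. Median log2 differences were 0.86 and 0.93 beside 0.53 for all genes. P4hb was at 69.8 and 53.3 RPKM in microglia and at 1570.4 and 947 in macrophages. Herpud1 went with Hspa5 and Ddit3, at 78.0 and 74.6 in microglia and 9.17 and 13.3 in macrophages. Of 6 ATF4-linked regulators that reached an RPKM of 1 in both cell types 2 were higher and 2 lower. Gdf15 was at 0.297 and 0.290 in microglia and at 12.1 and 19.5 in macrophages, opposite to Ddit3.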

How the data were processed

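Poly(A) RNA was measured in 10 libraries and 4 antibodies in 12 ChIP-seq libraries. RPKM values come from 1 table of 31641 RefSeq transcripts (mm9) deposited by the authors. STAR 2.0.3e, HOMER and edgeR are named for RNA, and Bowtie and HOMER for ChIP-seq, per the submitters' processing notes, and no read counts were used here. Peaks were called by HOMER in each library against an input, per the file headers. The name of that input points to another macrophage source, so a matched BV2 input cannot be assumed. The peak score deposited by the authors is 1 for all peaks, which leaves nothing to rank or filter by. A symbol with several transcripts is represented by the one of highest mean. RPKM times length gave whole reads for 100% of low values within 0.1 reads, from which depth and read numbers were taken.

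Tests on log2(RPKM + 1) covered genes that reached an RPKM of 1 in 2 or more of the libraries fitted, with limma 3.58.1 (R 4.3.3) and Benjamini-Hochberg adjustment over all genes tested. This scale understates fold changes of low genes. The fits were construct plus time, mutant against both controls by time (6 BV2 libraries each, 2 residual degrees of freedom), and genotype plus cell type (4 libraries). The code was tested on simulated data. Genes that reached the minimum RPKM in only 1 of the groups compared are left out of list counts and medians for mutant against controls and for cell type, a choice made after the values were seen. Distances run from peak centre to start, and peaks of different lists sharing 1 base or more were merged. Alternatives were other pseudocounts (0.1 and 5), filters, scalings, transcript choice, variance trend, terms, windows and overlaps, and leaving out each library. The 10 genes and all lists were chosen with earlier results of these data known. Named pathway genes are the 3 of each list with the largest difference in a comparison, or fewer. Lists of markers of neurons, astrocytes, oligodendrocytes and endothelium were also read. Their sums in BV2 cells were 2.17 to 5.47, 7.75 to 24.6, 1.69 to 4.62 and 8.62 to 44.4 RPKM, with the last from Flt1, and in primary cells each was at most 23.1 RPKM.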

Additional observations from a re-analysis of the deposited data

Results flagged for a closer look

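The difference between mutant-fragment and control BV2 cells was itself different at the 2 times for 5 of the 10 genes, by the interaction test in limma (adjusted p under 0.05). From 24 h to the second time the log2 difference changed by -2.98 for Trib3, -2.59 for Ddit3, -2.36 for Ppp1r15a, -1.34 for Hspa5 and -1.02 for Asns. The background is 28.1% of all genes, and each time holds 1 mutant library.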

How the results depend on the processing

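Precision is limited by the number of libraries and, for Chac1, by depth: each BV2 construct has 1 library per time, each primary group has 1 library, and Chac1 has at most 23 reads in any library. A stricter peak threshold could not be run, because all deposited scores are equal. The 24 h count of 7 genes stayed at 4 to 7 when single libraries were left out (calls lost with another pseudocount or filter are given with the results above), the second-time count of 1 at 0 to 1 and the interaction count of 5 at 0 to 6. Against the empty vector and against the wild-type fragment the count of 0 changed most without the second-time mutant library, a fit with 1 mutant library. Between times it ranged over 0 to 5, on the background given above, and between the controls it was 0 throughout. The second-time count was 0 with a pseudocount of 0.1, without a filter, with upper-quartile scaling and with summed transcripts. The count for macrophages against microglia, 7 with Asns, was 4 without a filter. Genes with a PU.1 peak in all 3 lists fell from 8 within 20 kb to 3 within 5 kb and 0 within 1 kb, and for C/EBPα from 6 to 3 within 1 kb.

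The labels give BV2 libraries no replicate numbers, so time took the place of a replicate block. Without the time term, and without the cell type term in primary cells, the count stayed at 0 for mutant against either control, between controls and for genotype. Reversals among single genes were Trib3 without the 24 h mutant library (-0.13 against the empty vector, -0.21 against the wild-type fragment, in ranges reaching 2.86 and 2.78 over the libraries left out) and Xbp1 between macrophages and microglia (-1.01 with quantile normalization, -0.88 with upper-quartile scaling, -0.24 without Q175/175 microglia or macrophages). Without either Q7/7 library Xbp1 was at 0.26, the same direction as its value of 0.01. The cause was not tested. Estimates near 0 that are not printed can also change sign.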

Other observations

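Genes whose RNA pattern over the 10 libraries was nearest to that of a stress gene were found by the root mean square distance between centred log2(RPKM + 1) values, among 11235 genes. This is a description with no test, over single libraries of unequal depth. Nearest to Ddit3 were Snhg12, a host gene of small nucleolar RNAs (distance 0.681), Irs2, an insulin receptor substrate (0.832), and the cytokine gene Il6 (0.882). Il6 was at 10.0 RPKM in the mutant-fragment library of 24 h, listed at 0 in the other 5 BV2 libraries and in both macrophage libraries, and at 5.00 and 3.80 in microglia. Snhg12 was at 7.33, 7.96 and 25.6 RPKM at 24 h and at 3.44, 3.55 and 5.87 at the second time. Nearest to Atf4 were Zfp952, Sbf1 and Mir17hg (0.134, 0.134 and 0.139), and nearest to Hspa5 were Zfp110, Zfp191 and Gtf2h2 (0.195, 0.212 and 0.220). Zfp952 and Mir17hg were highest in Q7/7 microglia, at 2.98 and 3.02 RPKM, against 128 for Atf4 there. This scale understates fold changes of such low genes, so a small distance does not mean equal fold changes.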
